A study of Mus musculus with 3 samples.

Results

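C2C12 is a mouse myoblast line derived from skeletal muscle that can be held in a reversible, quiescent state (G0) by suspension culture without anchorage. PRDM2, also called RIZ, is a zinc finger protein whose PR domain is known for methylation of lysine 9 of histone H3, and dimethylation of this lysine (H3K9me2) marks silent chromatin. The series asks at which promoters PRDM2 lies in arrested myoblasts. Chromatin immunoprecipitation on arrays (ChIP-on-chip) addresses this by comparing, at each probe, DNA pulled down with the antibody (IP) and total chromatin DNA (input).

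The results below concern the 2 PRDM2 arrays of the 3 arrays in the series, chosen by their antibody label. C2C12 cells arrested in methyl cellulose were fixed with formaldehyde and quenched in glycine for each array, and the remaining array carried H3K9me2 IP DNA from cells treated in the same way. On all 3 arrays Cy5 carried the IP and Cy3 the input, with no exchange of dyes, so that a dye effect and an IP effect cannot be told apart. No array with a control antibody enters the results. Nothing in the labels ties the PRDM2 pair to separate cultures, and p-values then measure only the spread between these arrays, which may be technical. With limma this spread is drawn mostly from all promoters together and little from the promoter itself.

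Each array held 237203 probes of 45 to 60 bases outside the controls, of which 227356 were autosomal and usable on both PRDM2 arrays, and 15616 autosomal promoters on 19 chromosomes had at least 3 probes. A promoter held a median of 15 probes, 174 bases apart. The median IP signal exceeded the median of negative-control spots 1.47-fold on PRDM2 array 1 and 1.39-fold on PRDM2 array 2, against 6.44-fold on the H3K9me2 array. On the PRDM2 arrays, 75.7% and 71.1% of probes had an IP signal well above background, and 97.99% and 99.02% had such an input signal. PRDM2 array 1 was scanned apart from PRDM2 array 2 and the H3K9me2 array, which shared a scan.

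The ratio of PRDM2 IP over input followed the GC content of the probe. With the median probe of each array set to 0, the median log2 ratio of probes with 38 to 40% GC was -0.37 on PRDM2 array 1 and -0.43 on PRDM2 array 2, against -0.87 on the H3K9me2 array. At 60 to 62% GC it was 2.36 and 2.49 on the PRDM2 arrays, and at 80% GC or more it was 4.62 and 4.57, against 1.54 on the H3K9me2 array. Very AT-rich probes, at 20 to 22% GC, also lay above 0, at 0.78 and 0.94, against 0.35 on the H3K9me2 array. Both signals were lowest in this bin. The median log2 IP signal was 5.76 and 5.78 on PRDM2 arrays 1 and 2, and the input signal 6.22 and 5.72. The GC bins held 26.7% and 40.4% of the variance of the probe ratio on PRDM2 arrays 1 and 2, against 12.5% on the H3K9me2 array. Between 38 and 60% GC the median log2 IP signal differed more than the input signal: it was 8.55 and 12.3 on PRDM2 array 1, where input was 9.84 and 10.9.

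**Figure D1:**
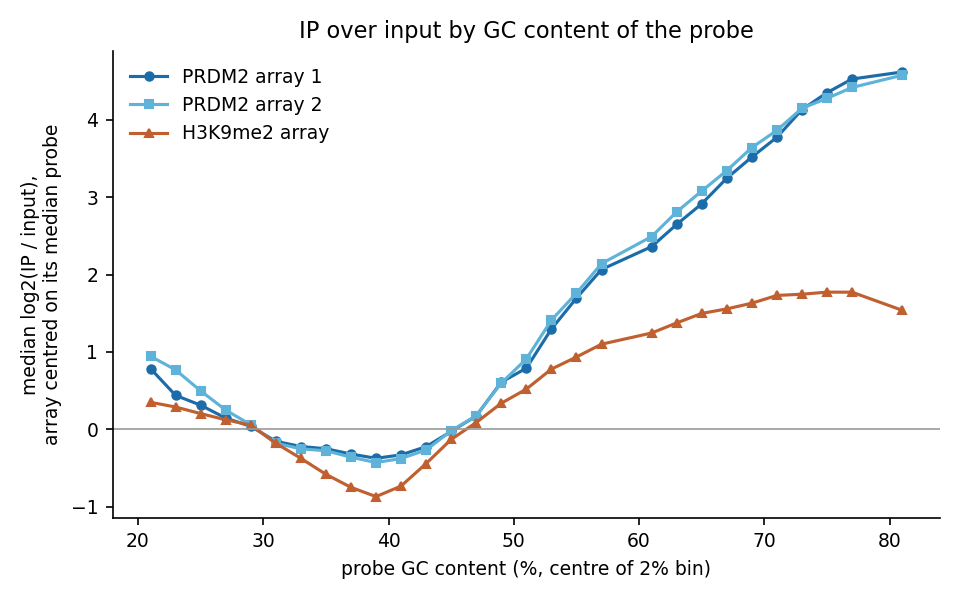
Median log2 ratio of IP over input (y axis, each array centred on its median probe) by GC content of the probe (x axis, 2% bins), with 1 line per array. Both PRDM2 lines reach 4.62 and 4.57 at the GC-rich end, where the H3K9me2 line is at 1.54, and all 3 lines have their lowest point at 38 to 40% GC.

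To see what the PRDM2 arrays share beyond GC content, the median of the probe's own 2% GC bin was subtracted on each array. All ratios below are these GC-bin-centred log2 ratios unless stated otherwise, and 0 is the level of the median probe of equal GC content. Over 227152 probes measured on all 3 arrays, Pearson's r between the PRDM2 arrays was 0.65 before and 0.49 after this step. After it, PRDM2 array 1 correlated with the H3K9me2 array at 0.51 and PRDM2 array 2 did so at 0.42. Over the means of 15615 promoters, r was 0.51 between the PRDM2 arrays, and 0.48 and 0.44 between PRDM2 arrays 1 and 2 and the H3K9me2 array. The points share their probes, their base composition and much of the input: the GC-bin-centred input signals alone correlated at 0.93 between the PRDM2 arrays, and the IP signals alone at 0.67, where PRDM2 array 1 and the H3K9me2 array had 0.64.

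What both PRDM2 arrays shared beyond GC content lay mostly at single probes, and the probes beside them were close to the mean of all probes. A level of 3 or more (8 times the median probe of equal GC content) was reached by 17010 probes on PRDM2 array 1, by 7793 on PRDM2 array 2, and by 2870 on both (1.26% of probes), which is 16.9% of the probes found on array 1 and 36.8% of those found on array 2. Only 180 probes lay at -3 or less on both arrays. The 2864 high probes also measured on the H3K9me2 array averaged 4.61 and 4.04 on the PRDM2 arrays, against 2.41 on the H3K9me2 array, where 87.3% of the 2870 lay at 1 or more, as did 27.9% of all autosomal probes. Input was well above background on both arrays at 97.1% of them. Probes less than 200 bases away from a high probe averaged 0.42 on PRDM2 array 1 and 0.23 on PRDM2 array 2, with medians of 0.05 and 0.03. At 1800 to 2000 bases the means were 0.35 and 0.19, and over all probes 0.33 and 0.17.

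**Figure D2:**
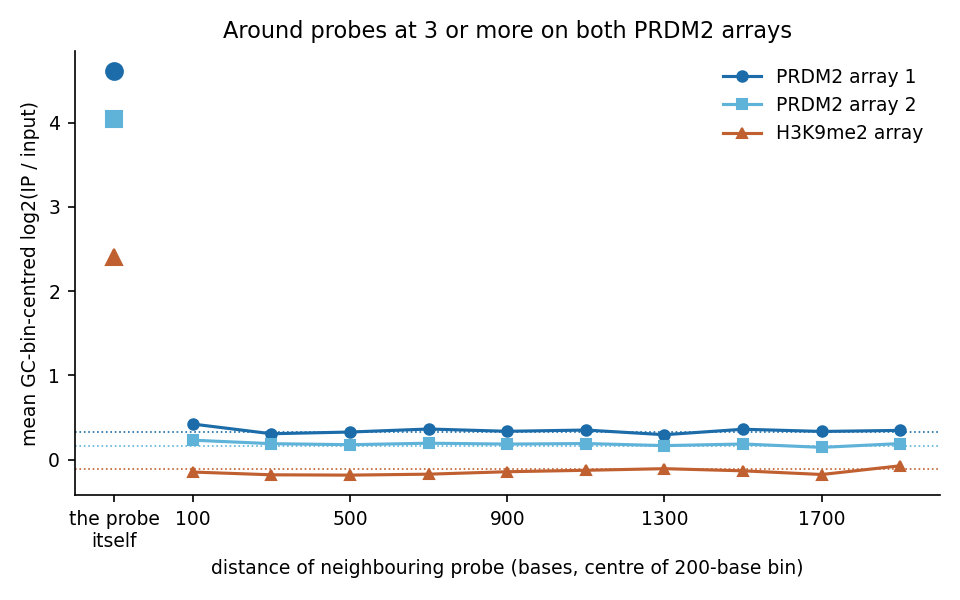
Mean GC-bin-centred log2 ratio of IP over input (y axis) of probes at 3 or more on both PRDM2 arrays (large symbols) and of their neighbours by distance (x axis, 200-base bins). Dotted lines give the mean of all autosomal probes of the array. Neighbours lie near the mean of all probes at every distance, from 0.42 and 0.23 on PRDM2 arrays 1 and 2 within 200 bases to 0.35 and 0.19 at 1800 to 2000 bases.

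The sequences of the 6 highest such probes are shown because the level both arrays share is highest at them. They are the highest by the lower of both PRDM2 values among probes with a gene name and input well above background on both arrays. Capitals mark the word GTGTG (on the other strand CACAC), the word GGTGG (on the other strand CCACC) and runs of 5 or more repeats of a dinucleotide. Positions are those of the array design, of a genome build that the sources used here do not name, and letters are printed as on the array. By the match to RefSeq starts described further on, the Sntg2, Tnip3 and Dupd1 probes lay at -1698, -1751.5 and -452.5 bases from the start, and the other 3 could not be placed.
Crh, chr3:19889923-19889982: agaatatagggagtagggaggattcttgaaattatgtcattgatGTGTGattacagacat
Sntg2, chr12:30961096-30961155: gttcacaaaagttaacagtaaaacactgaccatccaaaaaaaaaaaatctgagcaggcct
Tnip3, chr6:65518195-65518254: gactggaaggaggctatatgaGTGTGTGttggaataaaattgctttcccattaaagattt
Senp8, chr9:59547395-59547450: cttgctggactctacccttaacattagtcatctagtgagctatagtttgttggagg
Dupd1, chr14:20503557-20503604: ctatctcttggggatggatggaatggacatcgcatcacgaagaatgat
Gosr2, chr11:103513963-103514008: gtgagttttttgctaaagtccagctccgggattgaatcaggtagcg

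The probe at Crh, the gene of corticotropin-releasing hormone, had a ratio of 7.89 on PRDM2 array 1 and 8.05 on PRDM2 array 2, against 4.76 on the H3K9me2 array. Its processed IP signal was 13583 and 21596 intensity units on the PRDM2 arrays, and its input signal 128 and 172. The median log2 input signal of probes with 34 to 36% GC was 9.12 and 8.99, above that of the Crh probe. A neighbour of the Crh probe, 126.5 bases away, had 3.11 and 0.63 on PRDM2 arrays 1 and 2, above 0 on both. The probe at Tnip3, which codes for a partner of the NF-kappaB inhibitor A20, had 7.00 and 7.01 on the PRDM2 arrays, against 3.68 on the H3K9me2 array. Its neighbours, 149 and 146 bases away, had -0.51 and -0.16 on PRDM2 array 1 and -0.87 and -0.09 on PRDM2 array 2, all below 0. The probe at Dupd1, a dual-specificity phosphatase gene, had 6.84 and 6.71, and its neighbours at 208.5 and 131 bases were again below 0 on both arrays, between -0.23 and -1.12. At Senp8, the gene of a protease for the ubiquitin-like NEDD8, the probe had 6.86 and 7.56, and the next probe, 136 bases away, had 4.83 on PRDM2 array 1 and 1.61 on PRDM2 array 2. At Gosr2, a SNARE protein of the Golgi, the probe had 7.31 and 6.69, and the next one, 224 bases away, had 4.41 and 1.93. On the other side, the neighbour of the Senp8 probe had 1.38 and -0.15, and that of the Gosr2 probe 0.03 and -0.82. The probe at Sntg2 had 7.23 and 7.46. Its neighbours had 0.19 and -0.04 at 106 bases, and 2.66 and 0.45 at 483 bases.

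Short words rich in T and G, or in C and A on the other strand, were more frequent among the high probes than among all probes. The words were chosen after the values were seen, and no test was made. GTGTG or CACAC stood in 670 of the 2870 high probes (23.3%) and in 9.30% of all autosomal probes, and GGTGG or CCACC in 16.6% and 6.87%. Any of these 4 words stood in 37.3% of the high probes, against 15.7% of all. These shares were not compared at equal GC content. High probes made up 0.75% of probes under 36% GC, 1.30% at 36 to 44%, 2.15% at 44 to 52% and 0.20% at 60% or more. The median GC content of probes with GTGTG or CACAC was 41.5%, and with GGTGG or CCACC 46.7%. The 133 probes with 5 or more repeats of TG or GT averaged 3.57 on PRDM2 array 1 and 2.15 on PRDM2 array 2, against 1.54 on the H3K9me2 array, and 36.1% of them were high probes. The 101 probes with 5 or more repeats of CA or AC, the same repeat read on the other strand, averaged 3.60 and 2.22, against 1.51 on the H3K9me2 array. The 93 probes with repeats of CT or TC averaged 3.31 and 1.13, against 1.78 on the H3K9me2 array. Other repeats lay above 0 too. The 67 probes with repeats of AG or GA averaged 2.58 and 0.63, against 0.87 on the H3K9me2 array. The 51 probes with repeats of AT or TA averaged 1.47 and 1.17, against 1.03.

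The 4 highest probes with 5 or more repeats of a dinucleotide, by the same rule as the 6 above, are shown to give the letters and place of the repeat.
Rpp38, chr2:3252023-3252082: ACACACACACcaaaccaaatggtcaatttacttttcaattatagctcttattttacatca
Enpp1, chr10:24402647-24402698: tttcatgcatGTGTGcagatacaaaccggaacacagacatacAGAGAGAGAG
Rbpjl, chr2:164094561-164094608: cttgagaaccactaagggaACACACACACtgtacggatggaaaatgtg
Kif22, chr7:126835750-126835804: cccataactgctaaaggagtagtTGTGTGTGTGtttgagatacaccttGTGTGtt

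At Rpp38, a subunit gene of ribonuclease P, the probe had a ratio of 7.64 on PRDM2 array 1 and 5.82 on PRDM2 array 2, against 3.81 on the H3K9me2 array. The probe 128 bases before it had -0.31 and 0.78. The probe at Kif22, a kinesin of mitosis, had 6.70 and 5.53, against 4.01 on the H3K9me2 array, and the probe 311.5 bases before it had -0.80 and -0.87. At Rbpjl the neighbour 148.5 bases before had -2.09 and -1.76, and the one 207 bases after had 2.29 and 1.00. At Enpp1 the neighbour 400 bases before had 0.00 and -0.09, and the one 247 bases after had -0.75 and 1.87. The balance of T and A on the printed strand also went with the ratio. Probes with at least 8 more T than A averaged 0.66 and 0.46 on the PRDM2 arrays, and probes with at least 8 more A than T averaged 0.23 and 0.00, with a median GC content of 39.7% and 39.3%. On the H3K9me2 array the averages of these classes were 0.30 and -0.43. For C and G, both directions were above all probes, which averaged 0.33 and 0.17 on the PRDM2 arrays. Probes with at least 8 more C than G averaged 0.83 and 0.49, and with at least 8 more G than C 0.66 and 0.27.

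More CpG dinucleotides, the sites of DNA methylation, went with a lower GC-bin-centred ratio. Probes were classed within their GC bin and then averaged over all bins together, so that the mix of bins can differ between the classes. The 91328 probes at or above the 75th percentile of CpG count in their GC bin averaged 0.19 on PRDM2 array 1 and 0.11 on PRDM2 array 2, and the 119254 probes at or below the 25th percentile averaged 0.46 and 0.23. The difference was -0.27 and -0.12 on the PRDM2 arrays, against -0.56 on the H3K9me2 array. Loess normalization within arrays turned the mean difference of the PRDM2 arrays to 0.06, and normexp background correction made it smaller.

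High probes rarely lay side by side. Probes above the 95th percentile on both arrays (3.62 and 2.58) numbered 2960, of which 2879 stood alone, 39 pairs were neighbours, 1 run held 3 probes and 0 runs held 4 or more. The run of 3 lay at Slc13a2, a dicarboxylate transporter gene, on chr11:78239126-78239653, and averaged 5.71 and 4.31 on the PRDM2 arrays, against 3.17 on the H3K9me2 array. Before GC content was taken into account, 5 runs of 4 probes were found, at Dnmt3b, Kcmf1, Myrip, Parp12 and Rims2, with a mean GC content of 65.6 to 77.8%. Within a promoter the pattern likewise depended on which probes were read. Over 14690 promoters with 3 or more odd-numbered and 3 or more even-numbered probes, the mean of the odd probes on PRDM2 array 1 correlated at 0.49 with that of the same probes on PRDM2 array 2, and at 0.06 with the even probes of PRDM2 array 2. Odd and even probes of the same array correlated at 0.095 on both PRDM2 arrays, against 0.31 on the H3K9me2 array. With the IP signal alone the order was the reverse, at 0.145 and 0.117 on PRDM2 arrays 1 and 2, against 0.059 on the H3K9me2 array. With the input signal alone the values were 0.46 and 0.34, against 0.58.

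Averaged over the probes of a promoter, PRDM2 IP over input was called above 0 at 2254 promoters (14.4% of 15616) and below 0 at 200 (1.28%), with limma and a Benjamini-Hochberg adjusted p under 0.05 over all autosomal promoters. The median promoter itself lay above 0, at 0.29 on PRDM2 array 1 and 0.15 on PRDM2 array 2, against -0.15 on the H3K9me2 array, while the median probe lay at -0.01 on both PRDM2 arrays. Centred on the median promoter, 187 were called above and 119 below. With the median over the probes of a promoter in place of the mean, 0 were called either way with limma, while 1432 lay above and 1323 below 0 at an unadjusted p under 0.05. With normexp background correction 0 were called too. Of the 2254 promoters called above, 38.6% held a probe at 3 or more on both arrays, against 16.3% of all tested, and only a median of 21.1% of their probes lay above 1 on both. The H3K9me2 array lay above 0 at 76.9% of them, against 40.2% of all. Before GC content was taken into account, 7300 promoters (46.7%) were called above and 179 (1.15%) below. The share called above in that comparison was 87.7% in the most GC-rich of 4 equal classes of promoters and 11.2% in the least GC-rich one, while the GC-bin-centred shares lay between 13.8 and 15.8% in all 4 classes. By size alone, 179 promoters (1.15%) lay above 1 on both arrays and 13 (0.0832%) lay below -1.

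The 20 highest named promoters by the rule stated in the methods had 5 to 22 probes, and all 20 were at 1.26 or more on both PRDM2 arrays. Gsdm2 (current symbol Gsdma2), a gene of the pore-forming gasdermin family, had 2.54 on PRDM2 array 1 and 1.98 on PRDM2 array 2 (adjusted p = 8.1e-08 with limma, SD 0.40, n = 2), and 5 of its 8 probes lay above 1 on both. The standard error used by limma hardly followed the SD of the promoter. It was 0.218 at Gsdm2, 0.211 at Helb with an SD of 0.0040, and 0.243 at Klk1b5 with an SD of 0.89. Pcgf2, a RING finger component of Polycomb repressive complexes, had 2.48 and 1.77, against 1.32 on the H3K9me2 array, and 4 of its 7 probes lay above 1. At Whdc1 (Whamm), which codes for an activator of actin nucleation, the promoter mean was 2.23 and 1.65, yet only 1 of 6 probes lay above 1 on both arrays. Zbtb1, a zinc finger transcription factor gene, had 1.96 and 1.64, and Odf4, a sperm tail protein gene, had 2.07 and 1.55. Nr2f1, which codes for the nuclear receptor COUP-TFI, had 1.54 and 1.75, and 4 of its 14 probes lay above 1. Htra3, a secreted serine protease gene, was the one with the most probes among the 20, and had 1.56 and 1.40 with 6 of 22 probes above 1.

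Trpt1, an enzyme of tRNA splicing, had 2.10 and 1.28, and loess turned its mean to -0.23. Klk1b5, a kallikrein protease gene, had 2.77 and 1.51, the widest gap between the arrays among the 20, with an SD of 0.89. Lars2, the mitochondrial leucyl-tRNA synthetase gene, had 1.58 and 1.39, Helb, a DNA helicase gene, 1.32 and 1.33, and Lck, a tyrosine kinase of T cells, 1.30 and 1.32. Grin2d, an NMDA receptor subunit gene, had 1.26 and 2.03. Arl6ip6 was the only one of the 20 at which the difference of PRDM2 and H3K9me2 passed the test, at 1.65 (adjusted p = 0.011 with limma on 3 arrays); it had 2.03 and 1.50 on the PRDM2 arrays and 0.11 on the H3K9me2 array, and 1 of its 5 probes lay above 1 on both.

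The 10 lowest promoters had 5 to 11 probes and lay between -0.94 and -1.55 on both PRDM2 arrays. Foxh1, the forkhead partner of Smad proteins in Nodal signalling, had -1.27 and -1.28, against -1.82 on the H3K9me2 array. Cct5, a chaperonin subunit gene, had -1.45 and -1.19, against -2.79 on the H3K9me2 array, and the difference of 1.47 passed the test (adjusted p = 0.018 with limma). Cdkn2d, an inhibitor of cyclin D-dependent kinases, had -1.05 and -0.98, Eno2, the neuronal enolase gene, -1.15 and -1.02, and Cox15, an enzyme of haem A synthesis, -1.42 and -1.15. No probe of 9 of the 10 lay above 1 on both arrays, and 1 of the 9 probes of Eno2 did. Fnbp1 had 1.11 and 1.09 before GC content was taken into account and -0.65 and -0.75 after it, and 15 promoters in all were called above 0 first and below 0 after GC-bin centring.

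**Figure D3:**
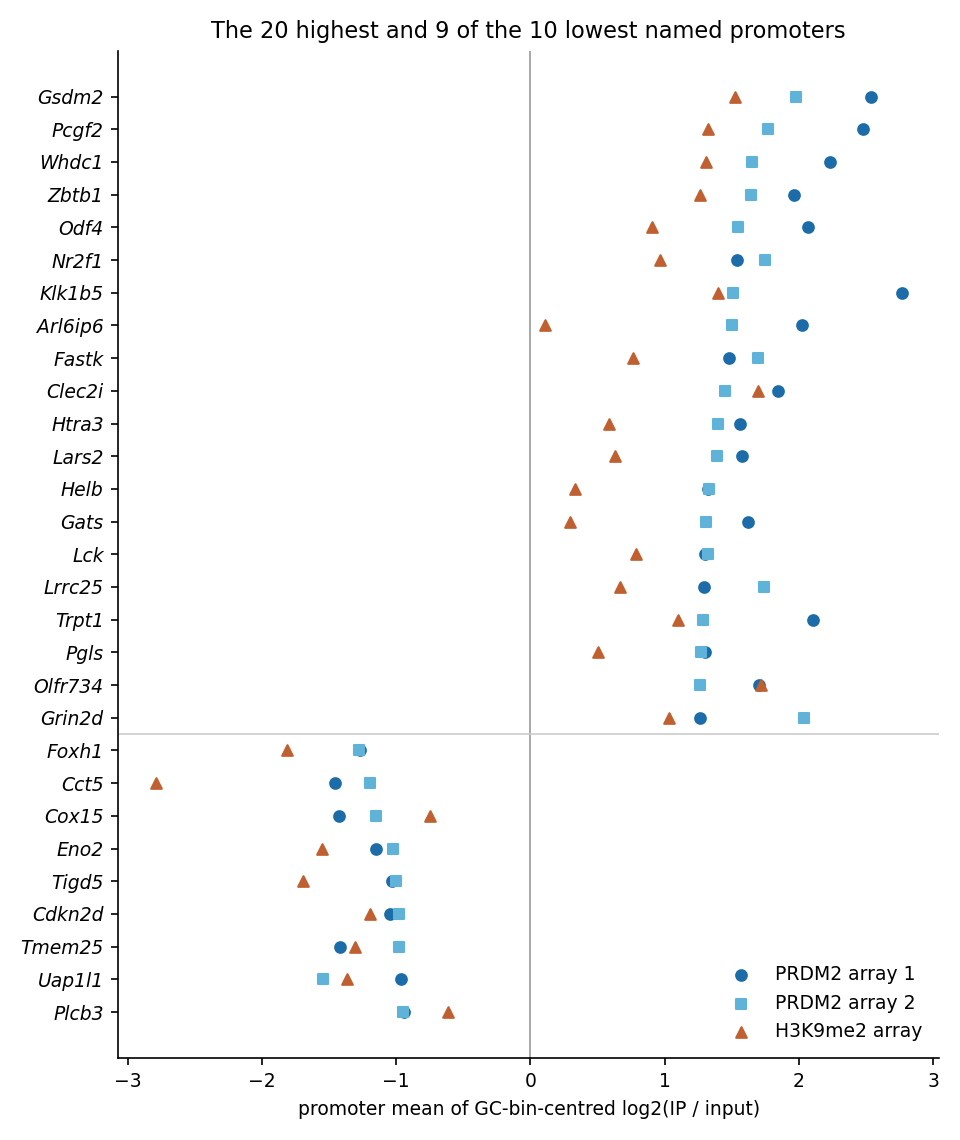
Promoter mean of the GC-bin-centred log2 ratio of IP over input (x axis) at the 20 highest (upper rows) and 9 of the 10 lowest named promoters on each array. PRDM2 symbols of the upper 20 lie at 1.26 or more, those of the lower 9 at -0.94 or less, and the H3K9me2 symbols lie on the same side of 0 in all 29.

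Being high at several probes on both arrays was rare. Both the odd-numbered and the even-numbered probes averaged over 1 on both arrays at 26 of 14697 promoters. Among these, Hoxa2 had 1.39 and 1.09 on the PRDM2 arrays, against -0.18 on the H3K9me2 array, with 7 of 19 probes above 1, and Foxe3, a forkhead factor of the lens, had 2.00 and 1.17 with 8 of 17. Gsdm2, Pcgf2, Htra3, Nr2f1, Lrrc25, Lck, Grin2d, Trpt1 and Pgls of the 20 highest were also among them. Mag, a myelin glycoprotein gene, had 5 of 19 probes above 1. These genes, other than those the rule names, were picked out after their values were seen.

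Tas2r120, Cdkn2a and A430090E18Rik, which had the highest share of probes above 1 on both arrays among the 26, were at the same time among the 5 promoters with a GC-bin-centred input under -3 on both arrays. Tas2r120, a bitter taste receptor gene, had 2.42 and 3.06 on the PRDM2 arrays, against 2.35 on the H3K9me2 array, with all 17 probes above 1 on both PRDM2 arrays. Its GC-bin-centred input was -4.09 and -4.49, and 0 and 1 of the 17 probes had an input signal well above background. Its IP signal alone was also below that of equal GC content, at -1.64 and -1.39. Cdkn2a, the locus of the cell cycle inhibitors p16 and p19Arf, had 2.11 and 3.14, against 1.76 on the H3K9me2 array, with 16 of 22 probes above 1. Its input was -3.51 and -3.55, well above background at 7 and 10 probes, and its IP signal -1.38 and -0.42. A430090E18Rik had 2.76 and 2.42 with an input of -3.85 and -4.03, and A030013N09Rik, also on chromosome 4, had 2.37 and 2.73 with -3.75 and -4.13. H2-M1 was the fifth such promoter and had 2.70 and 2.23. The part of the low input in these ratios was not tested.

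**Figure D4:**
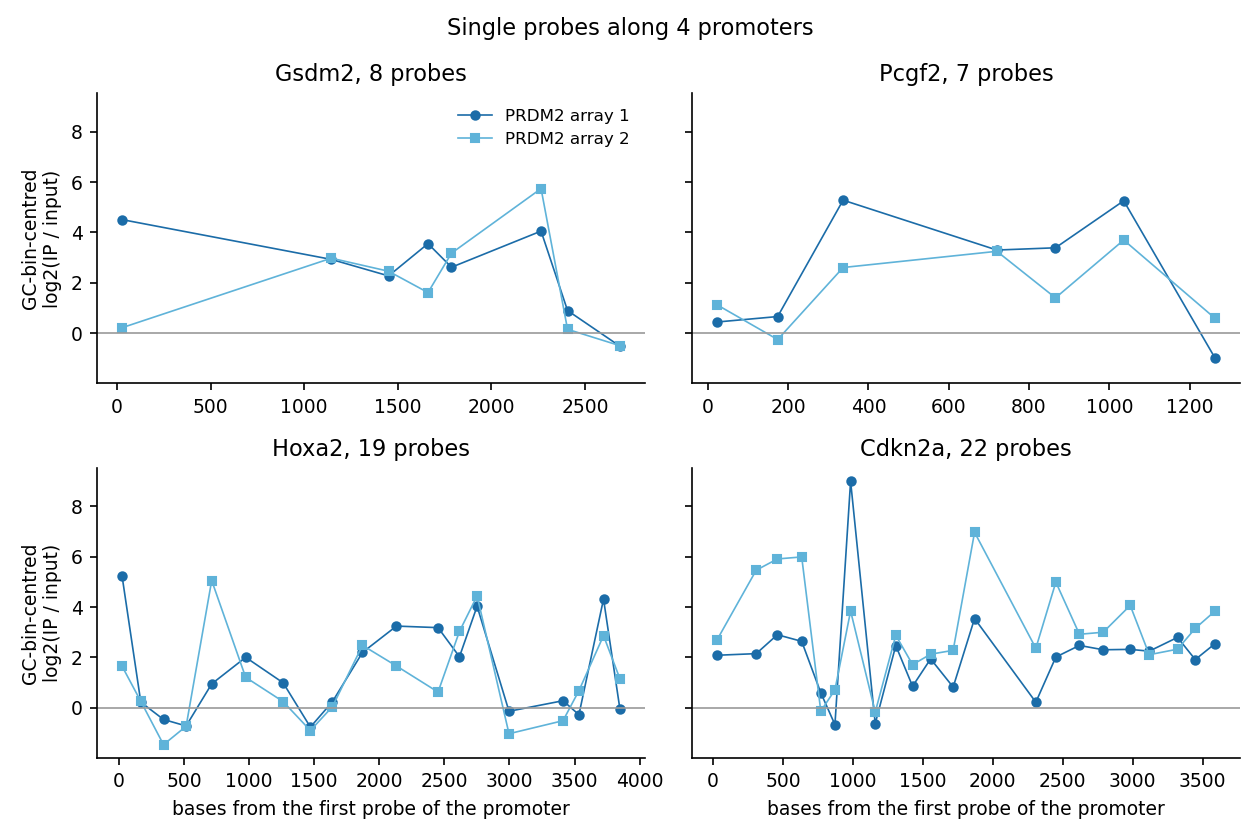
GC-bin-centred log2 ratio of IP over input (y axis) of each probe along 4 promoters (x axis, bases from the first probe), with 1 line per PRDM2 array. Levels jump between neighbouring probes at all 4. At Cdkn2a 16 of 22 probes lie above 1 on both arrays, and 7 and 10 of the 22 have an input signal well above background.

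Chromosome 15 stood apart from the other autosomes, with higher input and fewer calls above 0. Its 617 promoters had a median ratio of 0.09 on PRDM2 array 1 and -0.08 on PRDM2 array 2, where the other chromosomes had 0.26 to 0.38 and 0.11 to 0.18. The H3K9me2 array was lower there too, at -0.65, where the other chromosomes had -0.23 to -0.04. Of its promoters, 5.19% were called above 0 and 3.73% below, against 11.5 to 19.3% and 0.17 to 1.96% on the other chromosomes. Its median GC-bin-centred input was 0.59 and 0.53 and its median IP 0.69 and 0.45, where the other chromosomes had an input of -0.07 to 0.10 and an IP of 0.11 to 0.38. Foxh1, Cct5 and Tigd5 of the 10 lowest promoters lay on chromosome 15. The part of the higher input in the lower ratio was not tested.

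Of 5 genes named in any case for their part in the cell cycle, muscle differentiation or silencing, Id3 was called above 0, where 14.4% of all promoters were. Ccna2, the gene of cyclin A of S phase, had -0.19 on PRDM2 array 1 and 0.32 on PRDM2 array 2 (adjusted p = 0.87 with limma), against -0.93 on the H3K9me2 array. Myog, the gene of the differentiation factor myogenin, had 0.30 and 0.93 (adjusted p = 0.056), and Myod1, which specifies myoblasts, had 0.21 and 0.38 (adjusted p = 0.36). Id3, an inhibitor of such basic helix-loop-helix factors, had 0.61 and 0.62 (adjusted p = 0.046), and loess turned its mean to -0.06. Ezh2, the methyltransferase of Polycomb, had 0.40 and 0.29 (adjusted p = 0.27).

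Among 31 tested promoters of myogenic regulators, 8 were called above 0 (25.8%) and 0 below, against 14.4 and 1.28% of all promoters, and the list's median was 0.38 and 0.46, against 0.29 and 0.15 over all promoters. Pax7, the factor of satellite cells, the muscle stem cells, had 1.74 and 0.87 with 7 of 23 probes above 1 (adjusted p = 3.2e-04), Meox1, a homeobox factor of somites, 1.02 and 0.74, and Hey1, a Notch target, 0.73 and 0.81. The list's count was 1 (3.23%) once arrays were centred on the median promoter, beside 1.20% of all promoters, and 2 (6.45%) with the highest and lowest probe of each promoter left out, beside 3.93% of all. With the IP signal alone 4 of the 31 were called (12.9%), beside 21.5% of all promoters. Other settings kept the larger share. It was 9 of 31 (29.0%) with loess, beside 13.8% of all, and 9 of 31 with bright input probes only, beside 14.9%. Of 33 promoters of muscle structure genes, 2 were called above, Atp2a1, the sarcoplasmic calcium pump gene, among them with 0.59 and 0.71. Of 27 cyclin and CDK promoters, 1 was called above, Ccng1 with 0.44 and 0.93, and 2 below, Ccnd3 with -0.89 and -0.57 and Cdk4 with -0.95 and -0.48. Of 41 DNA replication promoters 5 were called above, with Tyms, the thymidylate synthase gene, at 1.18 and 1.17, and of 32 mitosis promoters 6, with the condensin gene Ncapd2 at 1.91 and 1.19. Of 27 immediate early gene promoters 1 was, Egr3, with 0.48 and 0.81.

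Several lists of developmental and chromatin regulators had larger shares called above 0 than all promoters together, while Wnt pathway promoters (7 of 48, 14.6%) and TGF-beta and BMP pathway promoters (7 of 51, 13.7%) were near the share of all. The larger ones included 9 of 32 Hox promoters (28.1%), 22 of 84 of other homeobox factors (26.2%), 16 of 73 of Fox, Sox, Gata, Tbx and Zic factors (21.9%) and 7 of 25 of histone lysine methyltransferases and PRDM genes (28.0%), beside 14.4%. Larger shares were not particular to such lists. Liver-type serpins, P450s and apolipoproteins had 19 of 87 (21.8%), splicing factors 15 of 77 (19.5%) and cytosolic ribosomal proteins 14 of 75 (18.7%). Solute carriers (37 of 330, 11.2%) and mitochondrial ribosome and respiration genes (18 of 166, 10.8%) had smaller ones. Hoxb5 had 1.33 and 0.81, Tbx5, a heart and limb factor, 1.01 and 1.41, and Six3, a forebrain and eye factor, 1.25 and 0.84. Prdm16, which directs brown fat, had 1.09 and 0.75, Prdm8 1.14 and 0.73, and Suv420h1 (Kmt5b), a methyltransferase of histone H4, 0.89 and 0.69. The median of the Hox list was 0.35 and 0.40, and that of the other homeobox list 0.47 and 0.31, against 0.29 and 0.15 over all promoters. That of the Fox, Sox, Gata, Tbx and Zic list was 0.25 and 0.27. Input at the other homeobox promoters was below that of equal GC content, at -0.30 and -0.18, and with the IP signal alone 10.7% of them were called above, beside 21.5% of all promoters. In that setting 19.2% of the Fox, Sox, Gata, Tbx and Zic list were called, and 8 of the 32 Hox and 7 of the 25 methyltransferase and PRDM promoters were. Centred on the median promoter, the counts were 1 of 84 for other homeobox factors (1.19%), 1 of 32 for Hox, 1 of 73 for Fox, Sox, Gata, Tbx and Zic factors and 0 of 25 for methyltransferases and PRDM genes, beside 1.20% of all promoters. With the highest and lowest probe of each promoter left out, 7 of the 84 other homeobox promoters were called (8.33%), beside 3.93% of all, and with loess 37 of the 84 were, beside 13.8% of all. Of 28 Polycomb promoters 4 were called above (14.3%), with Pcgf3 at 1.42 and 1.05 and Bmi1 at 1.08 and 0.88.

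Olfactory receptor genes, known for their expression in the nose, were the longest list. Of 787 promoters, 196 were called above 0 (24.9%, beside 14.4% of all promoters) and 2 below, with a median of 0.43 and 0.31 on the PRDM2 arrays, against 1.03 on the H3K9me2 array. Olfr295 had 1.63 and 1.62, with input well above background at 50% of its 4 probes on PRDM2 array 1. Olfr1129 had 2.32 and 1.49, with such input at 33.3% and 66.7% of its 3 probes. Their median input was -0.59 and -0.36 and their median IP -0.18 and -0.04, beside 0.32 and 0.17 for the IP of all promoters. With the IP signal alone, 7.88% of them were called above, beside 21.5% of all promoters. Vomeronasal receptor promoters had 22 of 97 called above (22.7%, beside 14.4% of all) and a median of 0.31 and 0.14, with input at -0.46 and -0.23. Their share was 15.5% with the IP signal alone, beside 21.5% of all, and 21.6% with loess, beside 13.8%. Centred on the median promoter, 1 of the 97 was called (1.03%), beside 1.20% of all. Centred on the median promoter, 19 of the 787 olfactory promoters were called above (2.41%), beside 1.20% of all. The part of the low input in these ratios was not tested.

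The ratio also varied with the distance from the start of the gene. Start sites of 8195 autosomal promoters were placed by exact matches of probes to RefSeq promoter windows of GRCm38.p6. Before GC content was taken into account, probes within 250 bases of the start averaged 1.27 on PRDM2 array 1 and 1.26 on PRDM2 array 2, and probes 1750 to 2500 bases upstream 0.40 and 0.13. The H3K9me2 array was also higher near the start then, with 0.18 against -0.25 upstream. After GC-bin centring the order turned: probes near the start averaged 0.17 and 0.13, and those upstream 0.49 and 0.24, a difference of -0.32 and -0.12. The H3K9me2 array had the same order after centring, with -0.21 near the start and 0.17 upstream. Loess and normexp left a mean difference of -0.02 on the PRDM2 arrays.

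**Figure D5:**
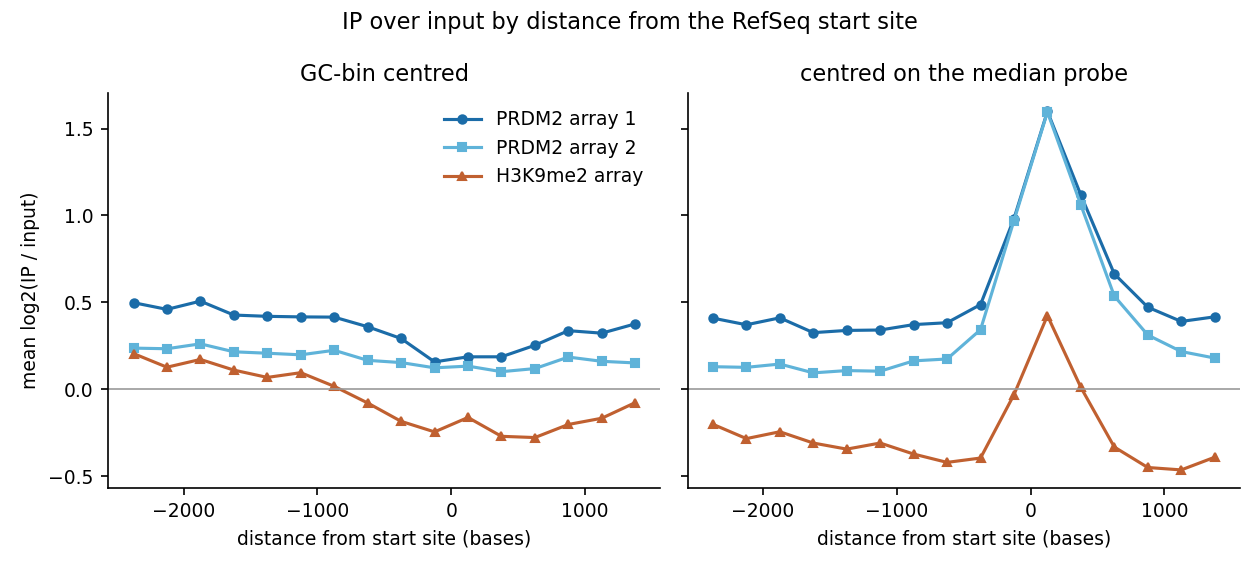
Mean log2 ratio of IP over input (y axis) by distance from the RefSeq start site (x axis, 250-base bins), GC-bin centred on the left and centred on the median probe on the right. The peak of 1.60 on both PRDM2 arrays just after the start is seen only before GC-bin centring, where the H3K9me2 array also peaks, at 0.42.

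Set against the H3K9me2 array, the PRDM2 ratio was called higher at 703 promoters (4.5% of 15615) and lower at 256 (1.64%) with limma, where the spread of the single H3K9me2 array is taken from the PRDM2 pair. The promoters called higher had medians of 0.29 and 0.18 on the PRDM2 arrays, close to all promoters, against -1.15 on the H3K9me2 array, and 150 of them (21.3%) were called above 0 over input, beside 14.4% of all. Those called lower had 0.25 and 0.20, against 1.80 on the H3K9me2 array. Of the 256, 144 were olfactory and 21 vomeronasal receptor promoters, from lists of 787 and 97 among all tested. Both lists had a lower median GC content than all promoters. Their median GC-bin-centred input on the PRDM2 arrays was also lower, at -0.59 and -0.36 for olfactory and -0.46 and -0.23 for vomeronasal promoters. The part of GC content and input in these calls was not tested. The test has no spread of the H3K9me2 array itself, so that an error of this array counts as a difference. PRDM2 array 2 minus the H3K9me2 array, which shared a scan, had a median of 1.34 at the 703 and -1.55 at the 256, which were chosen on a difference that holds both of these arrays. Centred on the median promoter, the counts were 17 higher and 192 lower. With only probes whose IP signal was well above background, they were 42 higher and 6 lower.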

How the data were processed

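Per the file headers, the authors' scans were read with Agilent Feature Extraction 10.5.1.1, which gave deposited intensity values for Cy5 and Cy3 after detrending, background subtraction and dye normalization. The deposited log10 ratio column of the same files, Cy5 over Cy3, was used only as a check. The deposited table of log2 ratios, whose scale and centring are not stated, correlated with the ratios used here at 0.965, 0.940 and 0.972 (PRDM2 array 1, PRDM2 array 2, H3K9me2), and served as an alternative. The sources used here do not name the build of the probe positions.

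The log2 ratio of the deposited processed Cy5 (IP) over Cy3 (input) intensity was taken per probe without outlier spots, and centred per array on the median of all probes or of each 2% bin of probe GC content. A promoter is the mean of 3 or more probes that share a gene name, split at gaps over 10000 bases. Promoters were tested with limma 3.58.1 in R 4.3.3 (lmFit, eBayes) against 0 on 2 arrays, which leaves 1 residual degree of freedom, or PRDM2 against H3K9me2 on 3 arrays, with Benjamini-Hochberg adjustment over all autosomal promoters. Scripts were tested on simulated data. Of 15532 gene names, 12534 were current RefSeq symbols, 2660 were synonyms of 1 gene and 338 did not match. The number of arrays limits the precision.

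Named promoters have 5 or more probes, input well above background at 80% or more of them, an adjusted p under 0.05, and values of 1 sign on the PRDM2 pair. They are the 20 highest by the lower array value and the 10 lowest by the higher one, and RIKEN clones and accessions (6 and 1) were passed over. For 1 of the 10 lowest, values are not reported here. Up to 3 called members were named per gene list, with 5 that turned with GC-bin centring, and Ccna2, Myog, Myod1, Id3 and Ezh2 in any case. The promoters, words and 33 gene lists were chosen with earlier results of these data known. Alternatives changed the probe summary, background correction, normalization, centring, bins and filters.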

Additional observations from a re-analysis of the deposited data

Results flagged for a closer look

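PRDM2 over input differed from H3K9me2 over input by the test of the difference itself at 703 promoters that were higher with PRDM2 and 256 that were lower. The H3K9me2 value rests on 1 array, whose own spread the test does not hold. Over all tested promoters the median difference was itself above 0, at 0.41. Centred on the median promoter, more promoters were called lower than higher, as given above. The promoters called higher had medians of 0.29 and 0.18 on the PRDM2 arrays, where all promoters had 0.29 and 0.15, against -1.15 on the H3K9me2 array.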

How the results depend on the processing

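Counts above 0 over input, GC-bin centred, were 2254 in the main setting, 0 with the median over probes, 0 with normexp, 187 centred on the median promoter and 967 with the deposited value table. Chosen after seeing the data, leaving out the highest and lowest probe gave 613, and leaving out probes at 3 or more on both arrays gave 1390. Counts below 0 (200) were 0, 0, 119 and 130 in the first 4 of these settings, 1220 with loess, 302 with a variance trend, 539 with IP signal alone and 105 without the highest and lowest probe. Median centred, 7300 above became 839 with the median over probes, 0 with normexp, 2882 with loess and 2705 centred on the median promoter, and 179 below became 12, 0, 1127 and 2045 there, 559 with bright IP probes only and 298 with a variance trend. Of calls either way, 91.9% were above 0 in the main setting, 63.8% with loess and 61.1% centred on the median promoter.

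For PRDM2 minus H3K9me2, 703 higher became 256 with the median over probes, 0 with normexp, 338 with loess, 42 with bright IP probes, 1274 with a variance trend, 17 centred on the median promoter, 246 with the value table, 146 with bins of neighbour GC and 251 without the highest and lowest probe. The 256 lower became 0 with normexp, 1103 with loess, 432 with bright input probes, 6 with bright IP probes, 511 with a variance trend, 104 with the value table and 30 with neighbour GC bins. Promoters above 1 on both arrays (179) numbered 68 with the median over probes, 1 with normexp, 50 with loess, 441 with bright IP probes, 75 centred on the median promoter, 688 with IP signal alone, 104 without the highest and lowest probe, 94 without probes at 3 or more, and 388 to 1302 on single arrays.

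The promoter correlation of 0.510 between the PRDM2 arrays was 0.444 with the median over probes, 0.365 with normexp, 0.666 with loess, 0.498 with bright input probes, 0.522 with bright IP probes, 0.458 with the value table and 0.699 with IP signal alone. The CpG difference of -0.19 was -0.036 with normexp, 0.063 with loess and -0.38 with IP signal alone, and the start-site difference of -0.22 was -0.016 with normexp and -0.024 with loess. Loess gave 1 run of 4 or more probes, at Mcl1. Of 30 named promoters, 0 stayed called with the median over probes and 0 with normexp, and of 18 lists above the overall share, 0 were so in either, since these settings call 0 promoters at all. The means of Gsdm2 and Pcgf2 were 2.40 and 2.35 with the median over probes and 1.098 and 1.50 with normexp, against 2.26 and 2.13 in the main setting. Loess turned Trpt1 to -0.23 and Id3 to -0.060. The cause of these shifts was not tested. No paired analysis was possible because the H3K9me2 group has 1 array, whose number came from accession order. Leaving out a PRDM2 array leaves no residual degrees of freedom for a test over input, and scan as a block leaves none for the difference.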
